A study of Mus musculus with 12 samples.

Results

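The lysosome genes described here are 36 genes chosen by name: acid hydrolases, luminal carriers, membrane proteins, subunits of the proton pump and the 3 transcription factors Tfeb, Tfe3 and Mitf. The platform annotation named a probe set for 34 of them, 1 each, out of 19505 genes with a named probe set, and all 34 passed the filter on dim genes. Ctsd and Glb1 had no named probe set and were not analysed here. The signals came from mouse myocardium hybridised to single-colour Affymetrix arrays, on 12 arrays in 3 groups of 4. AngIV mice were made diabetic with streptozotocin, a toxin of the insulin-producing beta cells, and were then infused with angiotensin IV, a peptide fragment of angiotensin II, at 2.88 mg/kg/day from the end of week 8 to the end of week 24. DM mice received the streptozotocin injections over 5 days with no infusion named in the labels, and both diabetic groups were restricted to mice with fasting glucose of at least 16.7 mM at 2 weeks. NC mice received vehicle injections over the same number of days. The labels attach 6 months to the tissue of all 3 groups and give no strain or sex. No group here combined the infusion with vehicle injections alone, so its action outside diabetes cannot be read.

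Lysosomes are the acidic compartments in which cells break down material delivered by autophagy, endocytosis and phagocytosis. A proton pump acidifies the lumen, hydrolases digest proteins, glycans, glycogen and lipids, and membrane proteins shield the limiting membrane and export the products. TFEB, TFE3 and MITF are related basic helix-loop-helix factors. When nutrient signalling through mTORC1 falls they enter the nucleus and bind a short palindromic element found near the starts of many lysosomal genes. Inherited loss of LAMP2 or of the glycogen-degrading enzyme GAA causes heart muscle disease in people, and macrophages, which digest what they engulf, are rich in lysosomal enzymes.

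The element bound by TFEB has the letters CACGTG at its centre, usually with T before it or A after it. TCACGTG, read on either strand, occurred in the RefSeq promoter windows (250 bases before to 50 after a start site, GRCm38.p6) of 12 of the 31 listed genes with a window, 38.7%, against 4.29% of 27025 genes. In the other lysosomal gene lists it occurred in 18 of 83 genes with a window, 21.7%, among them 4 of 7 enzyme sorting receptors and Rragc. The shorter CACGTG, which every TCACGTG contains, occurred in 14 of the 31, 45.2%, against 8.09% of all genes. The 12 were Lamp1, Gaa, Mcoln1, Ctsa, Atp6v0d1, Atp6v0e, Atp6v1a, Cln3, Gla, Naglu and the unmeasured Ctsd and Glb1. Stretches upstream of the start of 4 of them are shown because they carry the element that the transcription factors of this gene set bind, with CACGTG and any flanking T or A in capitals. Lamp1 held 4 copies within 61 bases of its start, Mcoln1 held 2 and the windows shown for Gaa and Ctsa held 1 each before the start.
Lamp1, chr8:13159070-13159160, plus strand: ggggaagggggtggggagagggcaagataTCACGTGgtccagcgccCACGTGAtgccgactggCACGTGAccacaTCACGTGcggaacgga
Mcoln1, chr8:3500418-3500509, plus strand: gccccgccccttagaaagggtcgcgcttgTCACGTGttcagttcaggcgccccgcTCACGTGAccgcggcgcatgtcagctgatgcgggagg
Gaa, chr11:119267793-119267858, plus strand: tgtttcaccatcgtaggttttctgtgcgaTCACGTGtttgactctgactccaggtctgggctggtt
Ctsa, chr2:164833731-164833772, plus strand: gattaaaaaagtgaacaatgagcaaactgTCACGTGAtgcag

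Each array's group follows its title, in keeping with its source name. The disease state tag goes against them, calling NC samples diabetic and AngIV samples controls, and it was not used. Signals are the authors' log2 values, and the 95th percentile over negative controls lay at 5.39 to 5.60 on the 12 arrays. The mean signal was below that level in all 3 groups for 8 of the 34 genes, Cln3, Ctsk, Ctsz, Gla, Gusb, Naglu, Npc1 and Tfe3, and their differences are given with no fold. All 8 ventricular cardiomyocyte markers, among them Myh6, Myl2 and Tnnt2, were above it in every group. The tissue also varied in content: the atrial light chain Myl7 was below it on all 4 AngIV arrays, on DM replicate 3 and on NC replicates 2 and 4, and above it on the other 5 arrays. The mean of 16 macrophage markers lay at 5.09 to 5.60 in AngIV, 5.09 to 5.91 in DM and 4.96 to 5.22 in NC. In AngIV against NC limma called 1 of 8 tested fibroblast markers lower, the collagen gene Col3a1, at 0.444-fold (adjusted p = 0.0097). It called 1 of 8 endothelial markers higher, Fabp4, at 1.32-fold (adjusted p = 0.0348). Of all genes 0.623% were called lower and 1.52% higher. Log2 changes of the other fibroblast markers ran from -0.51 for Postn to 0.06 for Dcn. Those of the other endothelial markers ran from -0.14 for Kdr to 0.75 for Vwf. The part of these cell types in the lysosome gene differences was not tested. In bulk tissue, a change in the number of cells of a type and a change in RNA per cell cannot be told apart.

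Angiotensin IV treated diabetic hearts were set against control hearts, the widest of the 3 comparisons. Progranulin, the cholesterol carrier Npc2 and the membrane receptor Scarb2 had the smallest p-values among the genes above background, at 1.36 to 1.64-fold, and none of them passed the threshold. Limma called 0 of the 34 genes at an adjusted p under 0.05, against 293 of 13653 genes tested, a background of 2.15% (1.52% higher and 0.623% lower). With p unadjusted and under 0.05, 9 of 34 were higher (26.5%, against 10.9% of all genes) and 1 was lower (2.9%, against 7.74%). Every AngIV array lay above every NC array for 7 genes (20.6%, against 7.59%), Hexa, Lipa, Psap, Npc2, Grn, Npc1 and Scarb2, and below for 1, Atp6v0d1 (2.9%, against 5.17%). Non-overlap in either direction was seen in 12.8% of all genes. A positive log2 change was seen in 24 of 34 (70.6%, against 50.6% of all genes), and the median of the 34 was 0.09, beside 0.00 over all genes tested.

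Grn encodes progranulin, a secreted glycoprotein that is sorted to lysosomes and cleaved there into granulins. Its log2 signal was 8.49, 8.49, 8.43 and 8.03 on AngIV replicates 1 to 4, 8.76, 8.27, 8.16 and 7.68 in DM, and 7.62, 7.72, 7.66 and 7.59 in NC. The 4 NC values spanned a narrow band that every AngIV value cleared, and DM replicate 4 alone among the DM arrays fell inside it. AngIV averaged 8.36 ± 0.22 and NC 7.65 ± 0.06 (SD, n = 4 each), a log2 change of 0.71 ± 0.18 (SE) or 1.64-fold, with a limma adjusted p = 0.0518. Leaving out 1 array at a time gave adjusted p-values of 0.0163 to 0.119, the 2 below the threshold without DM replicate 1 and without DM replicate 4.

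Npc2 encodes the soluble protein that picks up cholesterol in the lumen and hands it to the membrane protein NPC1. It read 6.40, 6.55, 6.35 and 6.20 in AngIV, 6.41, 6.35, 6.13 and 6.00 in DM, and 6.04, 5.78, 5.76 and 6.01 in NC. The AngIV and NC arrays did not overlap, and the DM arrays spread from the NC range into the AngIV range. AngIV averaged 6.38 ± 0.15 against 5.90 ± 0.15 in NC (SD, n = 4 each), a log2 change of 0.48 ± 0.12 (SE) or 1.39-fold, with a limma adjusted p = 0.0506. Its partner Npc1, below the negative control level, read 4.69, 5.01, 4.98 and 4.94 in AngIV, 5.04, 4.64, 4.85 and 4.43 in DM, and 3.79, 4.61, 4.58 and 4.34 in NC. NC replicate 1 was its lowest array, and AngIV against NC had a log2 change of 0.58 ± 0.17 (SE, limma adjusted p = 0.0913).

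Psap, the precursor of the saposins that help hydrolases reach sphingolipids, completes the luminal carriers. It read 10.53, 10.57, 10.38 and 10.33 in AngIV, 10.63, 10.28, 10.39 and 10.31 in DM, and 10.11, 10.20, 10.17 and 10.32 in NC. The lowest AngIV array and the highest NC array almost touched. Its log2 change in AngIV against NC was 0.25 ± 0.10 (SE, limma adjusted p = 0.21).

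**Figure D1:**
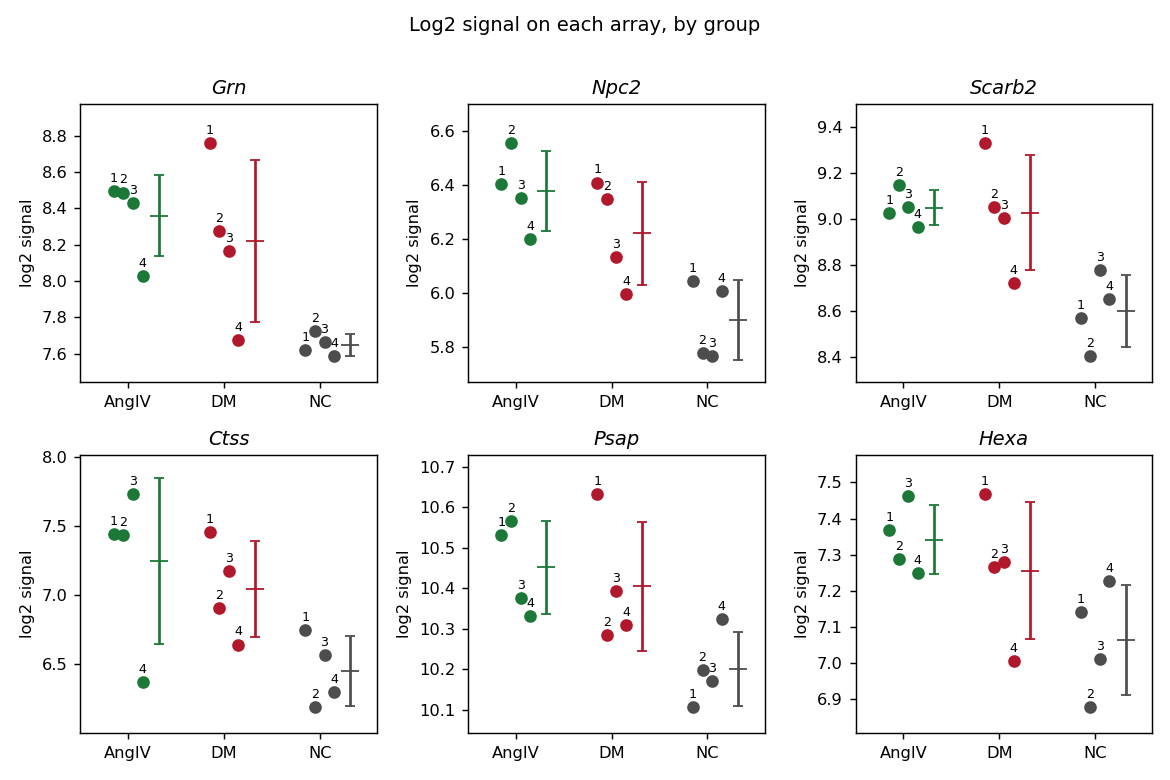
Log2 signal (y axis, a separate scale for each gene) of Grn, Npc2, Scarb2, Ctss, Psap and Hexa on each array of the AngIV, DM and NC groups, with replicate numbers; the bar beside each group is the mean ± SD (n = 4). All 4 AngIV points lie above all 4 NC points for each gene except Ctss, where AngIV replicate 4 is at 6.37, and DM replicate 4 is the lowest DM point for each except Psap.

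Among the membrane proteins, Scarb2 encodes LIMP-2, the receptor that carries glucocerebrosidase to lysosomes. It read 9.03, 9.15, 9.05 and 8.96 in AngIV, 9.33, 9.05, 9.0 and 8.72 in DM, and 8.57, 8.40, 8.78 and 8.65 in NC. Only DM replicate 4 of the 8 diabetic arrays reached into the NC range. AngIV averaged 9.05 ± 0.08 against 8.60 ± 0.16 in NC (SD, n = 4 each), a log2 change of 0.45 ± 0.12 (SE) or 1.36-fold, with a limma adjusted p = 0.0703.

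For the landmark proteins of the lysosomal membrane the values lay closer together. Lamp1, one of its most abundant glycoproteins, read 9.24, 9.34, 9.38 and 9.26 in AngIV, 9.28, 9.30, 9.43 and 9.32 in DM, and 9.26, 9.16, 9.29 and 9.34 in NC. The 3 groups overlapped, and the 95% interval of its log2 change in AngIV against NC ran from -0.14 to 0.23 (limma adjusted p = 0.85). Lamp2, needed for fusion of autophagosomes with lysosomes, read 9.34, 9.52, 9.52 and 9.43 in AngIV, 9.55, 9.55, 9.36 and 9.10 in DM, and 9.14, 9.35, 9.45 and 9.28 in NC. Its groups overlapped too, with an interval from -0.09 to 0.39 (limma adjusted p = 0.52). Mcoln1, the calcium release channel of the lysosome, read 6.94, 7.23, 7.17 and 7.15 in AngIV, 6.92, 7.02, 7.20 and 7.16 in DM, and 7.15, 7.18, 7.29 and 7.11 in NC. Replicate 1 was the lowest array in both diabetic groups, and the interval ran from -0.28 to 0.15 (limma adjusted p = 0.791). Cln3, the membrane protein lost in juvenile Batten disease, had a log2 change of -0.03 ± 0.17 (SE) at signals near background.

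The proteases differed among themselves. Ctss encodes cathepsin S, a cysteine protease of antigen-presenting cells that trims the invariant chain of MHC class II molecules. It read 7.45, 7.43, 7.73 and 6.37 in AngIV, 7.45, 6.91, 7.18 and 6.64 in DM, and 6.74, 6.19, 6.57 and 6.30 in NC. AngIV replicate 4 and DM replicate 4 lay within the NC range and the other 6 diabetic arrays above it. The log2 change in AngIV against NC was 0.80 ± 0.25 (SE) or 1.74-fold, with a limma adjusted p = 0.103. Without AngIV replicate 4 it was 1.09 and passed, with an adjusted p = 0.0165. The carboxypeptidase gene Ctsz read 5.82, 5.49, 5.82 and 4.87 in AngIV, 5.87, 5.33, 5.30 and 5.32 in DM, and 5.23, 4.76, 5.23 and 4.92 in NC, near background. AngIV replicate 4 lay within the NC range and the other 7 diabetic arrays above it, with a log2 change in AngIV against NC of 0.47 ± 0.20 (SE, limma adjusted p = 0.225).

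The broadly expressed cathepsins showed no such separation. Ctsb, a cysteine protease of most cell types, read 9.33, 9.30, 9.32 and 8.79 in AngIV, 9.54, 8.94, 9.30 and 8.92 in DM, and 9.18, 9.0, 9.26 and 9.28 in NC. The group means were 9.18 in each group, with a 95% interval from -0.32 to 0.33 for AngIV against NC (limma adjusted p = 0.989). Ctsl, a cysteine protease whose loss causes dilated cardiomyopathy in mice, read 7.96, 7.69, 7.85 and 7.91 in AngIV, 7.99, 7.85, 7.55 and 7.70 in DM, and 7.80, 7.54, 7.75 and 7.59 in NC. Its groups overlapped, with a log2 change of 0.18 ± 0.11 (SE, limma adjusted p = 0.416). The other 5 measured proteases, Ctsa, Ctsf, Ctsh, Ctsk and Tpp1, had log2 changes from -0.06 to 0.22, with limma adjusted p-values from 0.569 to 0.997.

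Of the 8 measured glycosidase, sulfatase and lipase genes, 7 had a positive log2 change in AngIV against NC and 0 were called by limma, with 1 at an unadjusted p under 0.05. That was Hexa, the alpha subunit of the enzyme that degrades GM2 ganglioside. It read 7.37, 7.29, 7.46 and 7.25 in AngIV, 7.47, 7.26, 7.28 and 7.01 in DM, and 7.14, 6.88, 7.01 and 7.23 in NC, so that AngIV and NC were separated by a small gap. Its log2 change was 0.28 ± 0.11 (SE, limma adjusted p = 0.207). Lipa, the acid lipase that frees cholesterol and fatty acids from lipoproteins, was tight at 6.19, 6.26, 6.21 and 6.22 in AngIV, against 6.03, 5.80, 6.17 and 5.81 in NC, with DM at 6.36, 5.87, 6.02 and 5.62. Its log2 change was 0.27 ± 0.14 (SE, limma adjusted p = 0.322). Gaa, the glycogen-degrading enzyme, was level, at 8.53 ± 0.10 in AngIV, 8.52 ± 0.08 in DM and 8.53 ± 0.19 in NC (SD, n = 4 each). Neu1, a sialidase, had -0.18 ± 0.12 and Naglu, which acts on heparan sulfate, 0.30 ± 0.16 near background (SE). Ids, Gla and Gusb lay between 0.03 and 0.10.

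Proton pump subunits were split. Of 5, 2 had a positive and 3 a negative log2 change in AngIV against NC, and 0 were called by limma, with 0 at an unadjusted p under 0.05. Atp6v1a, the catalytic subunit, read 5.69, 5.63, 5.68 and 5.65 in AngIV, 5.76, 5.49, 5.80 and 5.50 in DM, and 5.41, 5.42, 5.48 and 5.73 in NC. The single high NC array lay above every AngIV array and the other NC arrays below them, with a log2 change of 0.15 ± 0.11 (SE, limma adjusted p = 0.462). Atp6v0d1, of the membrane sector, read 6.32, 6.39, 6.33 and 6.38 in AngIV, 6.45, 6.41, 6.35 and 6.06 in DM, and 6.40, 6.58, 6.48 and 6.47 in NC. Every AngIV array was below NC by a narrow margin, with a log2 change of -0.13 ± 0.10 (SE, limma adjusted p = 0.517). Atp6v0e had -0.25 ± 0.13, and Atp6v1b2 and Atp6v1h had -0.08 ± 0.11 and 0.04 ± 0.15 (SE).

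The 3 transcription factors pointed in different directions. Tfeb read 6.18, 6.15, 5.98 and 5.93 in AngIV, 6.18, 6.00, 6.18 and 6.39 in DM, and 6.55, 6.44, 6.17 and 6.14 in NC. The groups overlapped, and its log2 change in AngIV against NC was -0.26 ± 0.12 (SE), with an unadjusted p = 0.0448 and a limma adjusted p = 0.255. Tfe3, at signals near background, read 5.22, 5.04, 4.86 and 5.17 in AngIV, 4.79, 4.93, 5.17 and 5.02 in DM, and 4.60, 4.69, 4.78 and 4.88 in NC. AngIV replicate 3 alone lay within the NC range, with a log2 change of 0.33 ± 0.11 (SE, limma adjusted p = 0.127). Mitf had -0.00 ± 0.08 (SE, limma adjusted p = 0.986). These are mRNA signals, and the factors are regulated largely by where the protein sits in the cell, which arrays do not measure.

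**Figure D2:**
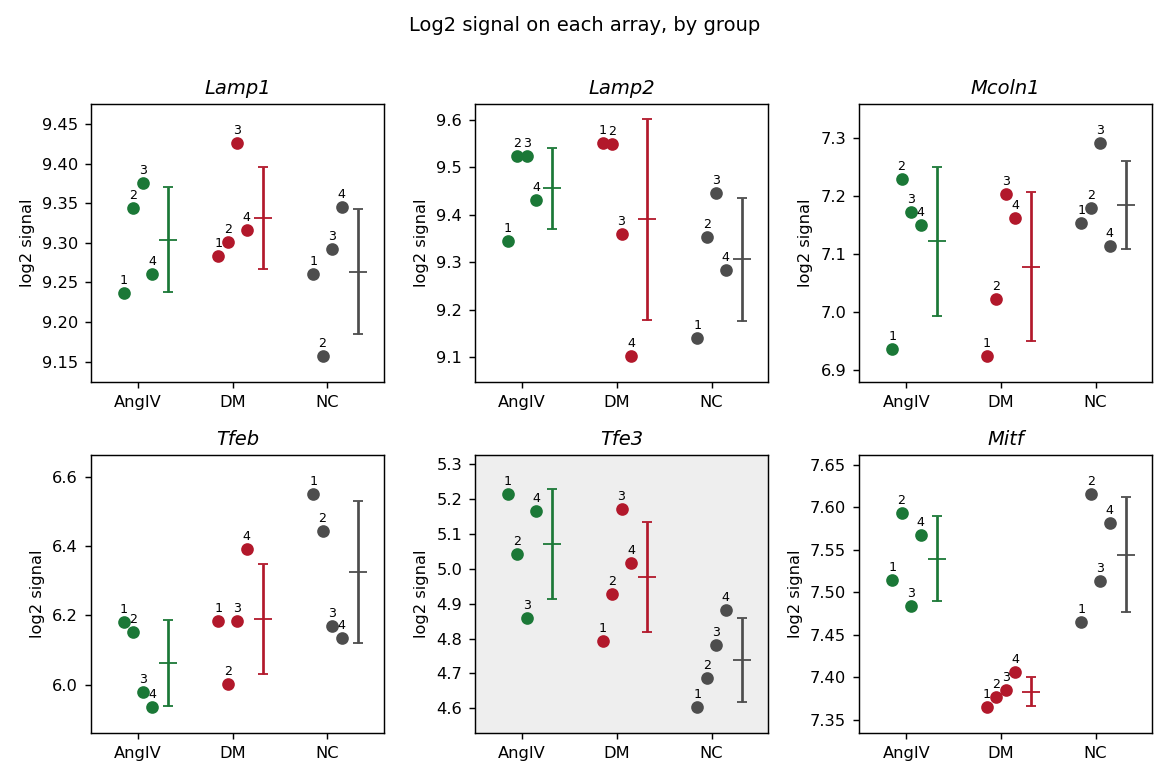
Log2 signal (y axis, a separate scale for each gene) of Lamp1, Lamp2, Mcoln1, Tfeb, Tfe3 and Mitf on each array of the AngIV, DM and NC groups, with replicate numbers; bars are the mean ± SD (n = 4), and grey shading marks signals below 5.48, the mean 95th percentile of the negative controls in NC. The 4 DM points of Mitf, 7.36 to 7.41, lie below all AngIV and NC points, and the groups of Lamp1, Lamp2, Mcoln1 and Tfeb overlap.

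Untreated diabetic hearts were set against control hearts. These groups differ by streptozotocin against vehicle injections, so diabetes and the toxin itself cannot be told apart, and atrial content varied within both. Scarb2, Grn, Atp6v1b2 and Npc2 had the smallest p-values, and the NC arrays are those also used for AngIV against NC. Limma called 0 of 34, against 3 of 13653 genes, a background of 0.0220%. At an unadjusted p under 0.05, 5 were higher, Ctss, Npc2, Grn, Npc1 and Scarb2 (14.7%, against 5.62%), and 1 was lower, Atp6v1b2 (2.9%, against 5.08%). All DM arrays lay above all NC arrays for 1 gene, Ctsz (2.9%, against 2.84%), and below for 1, Mitf (2.9%, against 2.45%), with 5.30% of all genes in either direction. A positive log2 change was seen in 20 of 34 (58.8%, against 49.6% of all genes), and the median was 0.08, beside -0.00 over all genes.

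Scarb2 had a log2 change of 0.43 ± 0.12 (SE) or 1.34-fold in DM against NC (limma adjusted p = 0.223). Grn had 0.57 ± 0.18 or 1.49-fold (limma adjusted p = 0.253) and Npc2 0.32 ± 0.12 or 1.25-fold (limma adjusted p = 0.343). Ctss had 0.60 ± 0.25 (limma adjusted p = 0.402). In the DM group the spread was wide: DM replicate 1 was the highest of the 4 arrays for 18 of the 34 genes and DM replicate 4 the lowest for 19. For Grn the DM mean was 8.22 ± 0.44, against 7.65 ± 0.06 in NC (SD, n = 4 each).

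Atp6v1b2, the B2 subunit of the pump's catalytic sector, had the lowest log2 change of the 34 in DM against NC. It read 6.26, 5.79, 6.00 and 6.08 in DM, against 6.19, 6.39, 6.55 and 6.28 in NC, with AngIV at 6.38, 6.21, 6.27 and 6.20. Only DM replicate 1 reached the NC range. The log2 change was -0.32 ± 0.11 (SE) or 0.804-fold (limma adjusted p = 0.332). Tfeb had -0.13 ± 0.12, with a 95% interval from -0.39 to 0.12, and Tfe3 0.24 ± 0.11 (SE). For 25 of the 34 genes the 95% interval lay within 0.5 log2 units either way of 0, among them Lamp1, Lamp2, Ctsa, Ctsb, Ctsl, Gaa, Mcoln1 and Tfeb.

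Angiotensin IV treated diabetic hearts were then set against untreated diabetic hearts. These groups differ by the infusion and, for some DM arrays, in atrial content. The atrial genes Myl7 and Sln were lower on every AngIV array than on every DM array. Their log2 changes were -3.93 ± 1.26 and -2.24 ± 0.80 (SE, limma adjusted p = 0.46 and 0.492). DM replicate 3 lay close to AngIV replicate 1, at 3.97 against 3.94 for Myl7 and 5.16 against 5.09 for Sln. These values lay below the negative control level. The other tested atrial markers overlapped, with log2 changes of -2.40 for Myl4, -0.80 for Dkk3, 0.04 for Nppa and 0.15 for Gja5. The part of atrial content in what follows was not tested beyond the covariate values given with the atrial markers. The differences of the lysosome genes were small, from -0.21 for Atp6v0e to 0.25 for Lipa on the log2 scale. Limma called 0 of 34 genes, where it called 0 of 13653 (a background of 0%), and 0 of the 34 had an unadjusted p under 0.05 in either direction, against 5.27% of all genes higher and 3.51% lower. A positive log2 change was seen in 29 of 34 (85.3%, against 52.9% of all genes), with a median of 0.05 beside 0.01 over all genes. All 9 measured proteases were among them, at changes from only 0.0006 to 0.20. In the other lysosomal lists described below, 55.9% of 93 tested genes were positive, from 39.1% of membrane proteins to 84.2% of TFEB regulators. For 28 of the 34 the 95% interval lay within 0.5 log2 units either way of 0; it reached 0.5 for Ctsk, Ctss, Lipa, Naglu, Grn and Npc1.

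The 4 genes with the smallest p-values in AngIV against DM were Atp6v1b2, Mitf, Lipa and Atp6v0e. Mitf, known for its role in pigment and mast cells besides lysosomes, was the 1 gene whose groups did not overlap (2.9%, against 3.57% of all genes higher and 2.19% lower). It read 7.51, 7.59, 7.48 and 7.57 in AngIV, against 7.36, 7.38, 7.38 and 7.41 in DM, with NC at 7.46, 7.62, 7.51 and 7.58. DM stood below both other groups, by a log2 change of -0.16 ± 0.08 (SE) against NC (limma adjusted p = 0.52), and AngIV against DM was 0.16 ± 0.08 (SE, limma adjusted p = 0.595). Both comparisons rest on the same 4 DM arrays. Atp6v1b2 had 0.23 ± 0.11 (limma adjusted p = 0.569) and Lipa 0.25 ± 0.14 (limma adjusted p = 0.602). Atp6v0e, a small subunit of the membrane sector, read 6.18, 6.07, 6.31 and 5.80 in AngIV, 6.28, 6.41, 6.26 and 6.25 in DM, and 6.11, 6.19, 6.56 and 6.48 in NC. AngIV replicate 4 was its lowest array, and its log2 change against DM was -0.21 ± 0.13 (SE, limma adjusted p = 0.643).

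**Figure D3:**
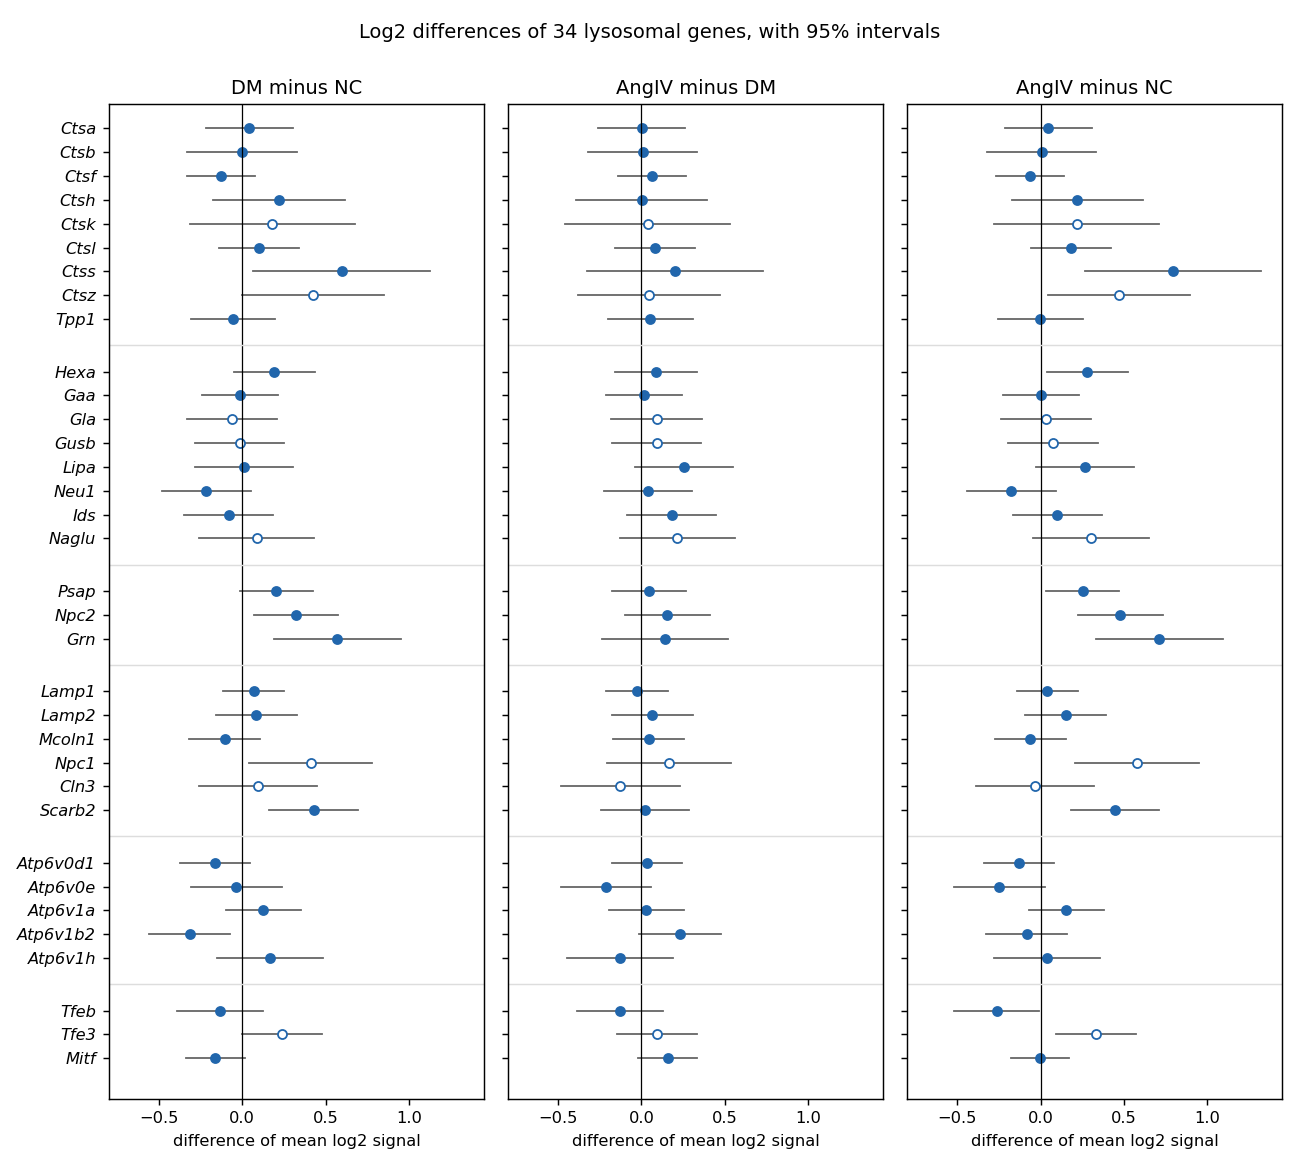
Log2 differences (x axis) of the 34 genes for DM minus NC, AngIV minus DM and AngIV minus NC, with lines for 95% intervals from limma; blocks from top to bottom are proteases, glycosidases with sulfatase and lipase, luminal carriers, membrane proteins, proton pump subunits and transcription factors. Open circles mark genes with a group mean under the negative control level in that comparison. Ctss, Grn, Npc1, Npc2 and Scarb2 have intervals above 0 in both comparisons with NC, and the intervals in AngIV minus DM all include 0.

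Macrophage markers were set beside the genes array by array. Within AngIV, replicate 4 had the lowest macrophage mean, 5.09 against 5.52 to 5.60 on the other 3, and the lowest signal of the group for 17 of the 34 genes, among them Grn, Npc2, Scarb2, Ctss, Ctsb and Psap. Within DM, replicate 1 had the highest macrophage mean, 5.91, and the highest Grn, Npc2, Scarb2 and Ctss, and replicate 4 had the lowest macrophage mean, 5.09, and the lowest of each of these 4 genes. Within NC the genes were mixed. Replicate 2 had the lowest macrophage mean, 4.96, with the lowest Ctss, 6.19, and Scarb2, 8.40, but the highest Grn, 7.72. Replicate 1 had the highest macrophage mean, 5.22, with the highest Ctss, 6.74, and Npc2, 6.04, but the lowest Npc1, 3.79. On replicate 3 Scarb2 was highest, 8.78, and Npc2 lowest, 5.76. Npc1 was lowest on AngIV replicate 1, at 4.69, and not on replicate 4, at 4.94. All 14 tested macrophage markers had a positive log2 change in DM against NC and in AngIV against NC, against 49.6% and 50.6% of all genes. Limma called 0 of them in each, against 0.0220% and 2.15% of all genes. Before adjustment 6 of 14 passed 0.05 in DM against NC (42.9%, against 5.62% of all genes higher) and 4 in AngIV against NC (28.6%, against 10.9%). Of the 16 markers, 9 had a mean below the negative control level in AngIV, 8 in DM and 10 in NC, the macrophage antigen gene Adgre1 among them in every group.

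With that macrophage mean entered as a covariate, the log2 changes in AngIV against NC were 0.32 for Grn, 0.24 for Ctss, 0.29 for Npc2 and 0.24 for Scarb2, with limma adjusted p-values from 0.363 to 0.642. Of the 34 genes 4 were then higher at an unadjusted p under 0.05, in place of 9, and 2 were lower, in place of 1. The share of all genes at that cut-off with the covariate was not counted. Limma called 10 of all genes in AngIV against NC with the covariate, in place of 293. In DM against NC the log2 changes with the covariate were 0.15 for Grn, -0.01 for Ctss, 0.12 for Npc2 and 0.20 for Scarb2. Ctsb moved to -0.31 in AngIV against NC and to -0.34 in DM against NC, with limma adjusted p-values of 0.372 and 0.623. On AngIV replicate 4, whose macrophage mean lay within the NC range, Grn, Npc2 and Scarb2 were above every NC array, at 8.03, 6.20 and 8.96. Ctss was not, at 6.37. The macrophage mean of DM replicate 4, 5.09, lay within the NC range too. There Grn, Npc2, Scarb2 and Ctss all lay within their NC ranges, at 7.68, 6.00, 8.72 and 6.64. The part of macrophage content in these values was not tested.

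**Figure D4:**
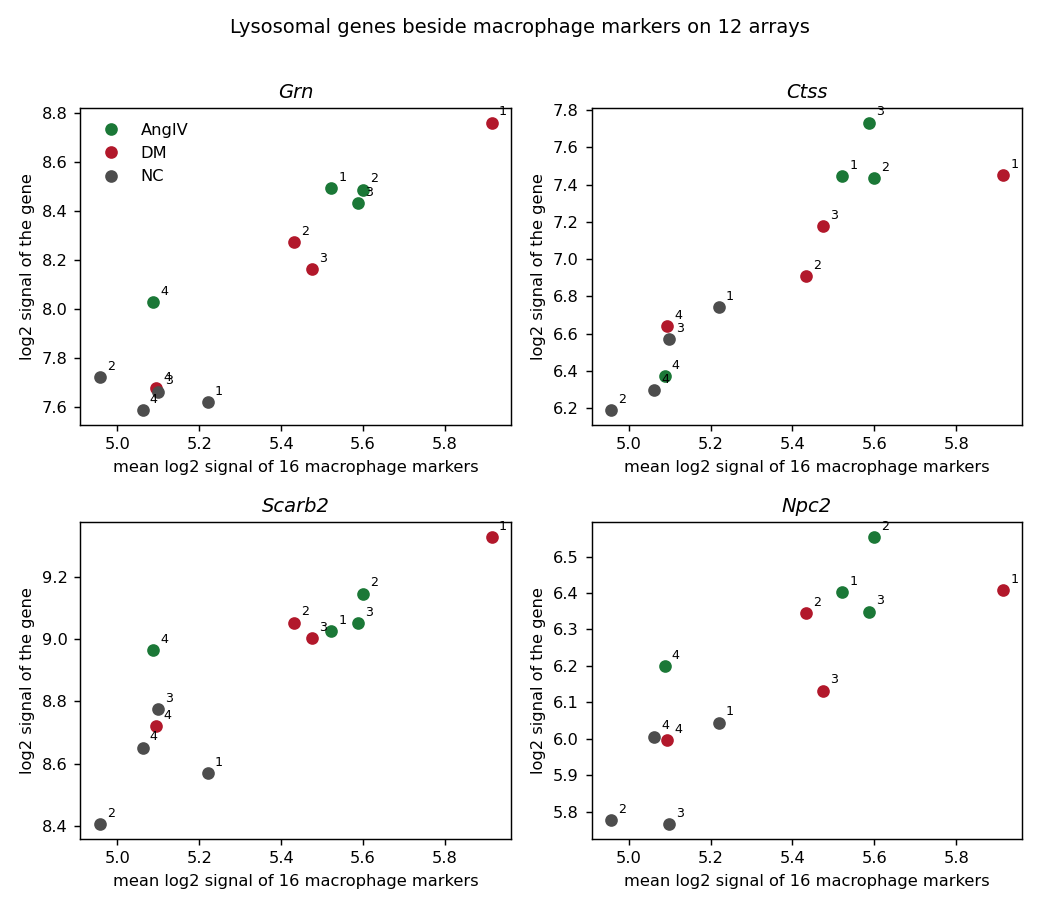
Log2 signal of Grn, Ctss, Scarb2 and Npc2 (y axes) beside the mean log2 signal of 16 macrophage markers (x axes) on the 12 arrays, coloured by group and marked with replicate numbers. DM replicate 1, at a macrophage mean of 5.91, is the highest array for Grn and Scarb2. The 4 NC arrays lie at the lower left in each panel, with DM replicate 4 (macrophage mean 5.09) among them. AngIV replicate 4 has a macrophage mean of 5.09 too.

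Atrial content differed between arrays as well, and its part in these differences was not tested beyond the values given here. With the atrial marker mean as a covariate the log2 changes in AngIV against NC were 0.76 for Grn, 0.54 for Npc2, 0.48 for Scarb2 and 0.88 for Ctss, with Npc2 at a limma adjusted p = 0.0436. In AngIV against DM the covariate gave 0.22 for Ctsl in place of 0.08, 0.30 for Ctss in place of 0.20, 0.32 for Lipa in place of 0.25, 0.20 for Atp6v1b2 in place of 0.23 and 0.12 for Mitf in place of 0.16, with limma adjusted p-values from 0.573 to 0.797. A further fit used the 7 arrays with Myl7 below the negative controls (4 AngIV, 1 DM and 2 NC), a selection chosen after seeing the data. Its log2 changes in AngIV against NC were 0.71 for Grn, 0.49 for Npc2, 0.52 for Scarb2 and 1.0 for Ctss.

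The TFEB element in the promoter was set beside the changes as a description. The 10 measured genes with TCACGTG had log2 changes from -0.25 to 0.30 in AngIV against NC, with a median of 0.02 and 6 of 10 positive. The 19 measured genes with a window but without those letters ran from -0.26 to 0.80, with a median of 0.22 and 14 of 19 positive. Grn, Npc2, Scarb2, Ctss and Psap are among the 19, and Lamp1 with its 4 copies is among the 10. The absence of these letters says nothing of sites outside the window.

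Other genes of the lysosome and of TFEB control, 96 with a probe set, were read from lists that also hold hydrolases, membrane proteins, pump subunits, sorting receptors and regulators of TFEB. Of 93 tested, limma called 3 higher and 1 lower in AngIV against NC, against 1.52% and 0.623% of all genes, 0 in DM against NC and 0 in AngIV against DM. Before adjustment, p was under 0.05 in AngIV against NC for 20 above and 4 below (21.5% and 4.3%, against 10.9% and 7.74% of all genes). In DM against NC it was so for 11 above and 4 below (11.8% and 4.3%, against 5.62% and 5.08%), and in AngIV against DM for 5 and 2 (5.4% and 2.2%, against 5.27% and 3.51%). Slc38a9, the lysosomal arginine sensor that signals to mTORC1, fell to 7.05, 7.10, 7.13 and 7.18 in AngIV, against 7.73, 7.64, 7.94 and 7.53 in NC, with DM between them at 7.30, 7.37, 7.43 and 7.30. The 3 groups did not overlap. The log2 change was -0.60 ± 0.10 (SE) or 0.661-fold in AngIV against NC (limma adjusted p = 0.00819) and -0.36 ± 0.10 in DM against NC (limma adjusted p = 0.197). In AngIV against NC Slc38a9 lost its call with the macrophage covariate, at -0.59 (limma adjusted p = 0.0802), and on the arrays of low Myl7, at -0.47 (limma adjusted p = 0.107).

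Rragc and Flcn belong to the nutrient-sensing branch that holds TFEB in the cytosol: RagC recruits the factor to the lysosome and folliculin activates RagC. Rragc rose to 7.56, 7.63, 7.52 and 7.50 in AngIV, against 7.11, 7.02, 7.12 and 7.07 in NC, with DM at 7.34, 7.54, 7.15 and 7.31. Every diabetic array lay above every NC array, and the log2 change in AngIV against NC was 0.47 ± 0.10 (SE) or 1.39-fold (limma adjusted p = 0.0208). Flcn rose to 7.21, 6.98, 6.99 and 7.63 in AngIV, against 6.54, 6.53, 6.54 and 6.73 in NC, with DM at 7.0, 7.11, 6.83 and 6.58. AngIV replicate 4 was the highest, and the log2 change was 0.61 ± 0.15 (SE) or 1.53-fold (limma adjusted p = 0.0436). Pla2g15, a lysosomal phospholipase, read 5.94, 5.97, 5.83 and 5.57 in AngIV, 5.72, 5.72, 5.57 and 5.49 in DM, and 5.31, 5.48, 5.27 and 5.35 in NC, the last near background. It rose by 0.48 ± 0.11 on the log2 scale in AngIV against NC (SE, limma adjusted p = 0.0335). With the macrophage covariate none of the 3 passed, at log2 changes of 0.44, 0.66 and 0.35 for Rragc, Flcn and Pla2g15, and on the arrays of low Myl7 their limma adjusted p-values were 0.0892, 0.200 and 0.210. With the atrial covariate Flcn and Pla2g15 lost their calls (limma adjusted p = 0.0579 and 0.0545). Leaving out 1 array at a time gave adjusted p-values of 0.0192 to 0.0652 for Rragc, 0.0345 to 0.104 for Flcn and 0.0251 to 0.0992 for Pla2g15. Rragc lost its call without AngIV replicate 2, 3 or 4 or NC replicate 2. Flcn lost it without any AngIV or NC array or DM replicate 3, and Pla2g15 without AngIV replicate 1, 2 or 3 or any NC array.

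In DM against NC the smallest p-values of these lists after Slc38a9 belonged to Ppargc1a, a coactivator of mitochondrial genes and a TFEB target, at 0.42 ± 0.13 (SE, limma adjusted p = 0.262), and Pip4p1, a lysosomal phosphatase, at 0.29 ± 0.10 (limma adjusted p = 0.28). In AngIV against DM they belonged to Gga2 and Gga1, adaptors that sort mannose 6-phosphate receptors, and Tfec, the fourth relative of TFEB. Gga2 read 6.79, 6.67, 6.88 and 6.94 in AngIV, against 6.50, 6.40, 6.55 and 6.50 in DM, with NC at 6.61, 6.59, 6.64 and 6.54. AngIV stood above both other groups, by a log2 change of 0.33 ± 0.09 (SE, limma adjusted p = 0.372) against DM. Gga1 had 0.33 ± 0.11 (limma adjusted p = 0.464) and Tfec -0.51 ± 0.15 (limma adjusted p = 0.372), both at signals near background.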

How the data were processed

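The values deposited by the authors are 1 log2 signal per probe set and array, for 12 arrays. The submitters' processing notes name RMA, a method of background correction, quantile normalization and probe summary; that the scale is log2 was judged from the range of values. No version of RMA, chip description or build is given in the sources used here. Such normalization hides any change in total mRNA per sample. Of 29129 probe sets, 6923 controls were left out, and 19572 of 22206 transcript probe sets had 1 gene symbol, 2634 none and 0 several. For 55 genes with several, the probe set of highest mean was kept. The dimmest 30% of 19505 genes (mean under 3.40) were left out, which left 13653.

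Groups were compared with limma 3.58.1 in R 4.3.3 (lmFit, eBayes) over all 12 arrays, with Benjamini-Hochberg adjustment over all 13653 genes and a threshold of 0.05; the number of arrays limits the precision. The design text gives 4 mice to each group, so each array was taken as 1 mouse. The method was tested on simulated data. Members and lists were chosen with earlier results of these data known. Values on every array are given for fixed genes of each role, for the 4 genes of smallest p in each comparison and for others whose groups did not overlap; of the other lists, called genes and the 3 of smallest p are named. Promoter sequences are RefSeq's (GRCm38.p6). Alternatives covered filters, prior, block, samples, weights, scaling, probe sets, 2 covariates and single arrays.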

Additional observations from a re-analysis of the deposited data

Results flagged for a closer look

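In 4 of 102 sets of 4 replicates (34 genes in 3 groups) 1 array stood far from the other 3, where chance gives about 1 in 20. AngIV replicate 4 was low for Ctsb, at 8.79 against 9.30 to 9.33 on the other 3 arrays, and for Grn, at 8.03 against 8.43 to 8.49. DM replicate 1 was high for Ctsz, at 5.87 against 5.30 to 5.33. NC replicate 2 was low for Atp6v1h, at 5.18 against 5.89 to 5.94. AngIV replicate 4 also had the lowest macrophage marker mean of its group and DM replicate 1 the highest of all arrays; their part in these values was not tested.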

How the results depend on the processing

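Of 1218 values of single genes under the alternatives, 1115 kept their direction and their side of the threshold, 26 newly passed it, 34 lost it and 43 turned direction. Most of these values belong to genes not called at first. The lost calls all fell on Slc38a9, Rragc, Pla2g15 and Flcn in AngIV against NC. Of 24 alternatives each, these were called in 22, 18, 13 and 9. In DM against NC and AngIV against DM, 0 of the 34 lysosome genes were called under every alternative. In AngIV against NC, where 0 were called, limma called 3 (Grn, Npc2 and Scarb2) with the dimmest 50% of genes left out, with only genes above the negative controls, with an intensity trend in the prior and with only the 2 groups compared, 2 (Grn and Npc2) with array weights and with arrays centred on their median, 1 (Npc2) with the atrial covariate, and 0 to 3 without 1 array: Grn, Npc2 and Scarb2 without DM replicate 1 or DM replicate 4, and Ctss without AngIV replicate 4. Without DM replicate 1 or DM replicate 4, the log2 changes of Grn, Npc2 and Scarb2 stayed at 0.71, 0.48 and 0.45. The SE of Grn was then 0.14 in place of 0.18. The cause of the differing calls was not tested beyond these values. Over all genes in AngIV against NC, limma called 391 with array weights, 336 with centring and 390 with the atrial covariate. Counts over all genes in AngIV against NC (293) were 492 with the dimmest 50% left out, 594 above the negative controls, 576 with the trend, 466 with 2 groups, 10 with the macrophage covariate, 102 on arrays of low Myl7 (added after seeing the data) and 104 to 469 without 1 array, lowest without AngIV replicate 4 and highest without DM replicate 1. In DM against NC (3) they were 20, 24, 29, 5, 1 and 0 under the same settings and 3 to 30 without 1 array, and in AngIV against DM (0) 0 to 5 without 1 array.

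At an unadjusted p under 0.05, genes of the 34 in DM against NC (5 higher, 1 lower) were 2 lower above the negative controls and with the trend, 1 higher and 3 lower with the macrophage covariate, and 2 higher and 0 lower on arrays of low Myl7. In AngIV against DM (0 higher) they were 2 above the negative controls and with array weights, 1 with the trend and the macrophage covariate, and 0 to 2 without 1 array. In AngIV against NC (9 higher, 1 lower) they were 0 lower with the block, with 2 groups and with the atrial covariate. With the macrophage covariate they were 4 higher and 2 lower. The share of all genes at that cut-off was not counted under the alternatives.

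Log2 changes that turned direction were small in most cases. In DM against NC, Ctsb was 0.0036 with centring, 0.0028 with the atrial covariate and 0.16 on arrays of low Myl7; with the macrophage covariate Lamp2 was -0.036 and Ctss -0.0062; on arrays of low Myl7 Ctsl was -0.015 and Mcoln1 0.057. In AngIV against DM, Ctsb was -0.0082 with centring; with the atrial covariate Ctsb was -0.018, Tfe3 -0.016 and Atp6v1a -0.062; on arrays of low Myl7 Ctsb was -0.12, Mcoln1 -0.082, Tfe3 -0.10 and Atp6v1a -0.14. In AngIV against NC, Ctsb was -0.0100 with array weights, -0.0046 with centring, -0.015 with the atrial covariate and -0.31 with the macrophage covariate, where Mcoln1 was 0.0019 and Mitf 0.029. Without 1 array, Ctsb ran from -0.12 to 0.083 in DM against NC, -0.077 to 0.14 in AngIV against DM and -0.054 to 0.14 in AngIV against NC, where Mitf ran from -0.031 to 0.020. In AngIV against DM, Lamp1 ran from -0.051 to 0.0039, Lamp2 from -0.031 to 0.12, Mcoln1 from -0.0076 to 0.11 and Atp6v1a from -0.020 to 0.085.

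Over all genes tested the replicate numbers showed no pairing of the samples. Deviations from the group means of same-numbered arrays correlated at -0.115 to 0.208, against -0.214 to 0.233 for different numbers. A check over all genes cannot settle pairing for single genes. In AngIV against NC the block lowered the SE of Ctss from 0.248 to 0.168 and of Grn from 0.178 to 0.142, and raised that of Scarb2 from 0.124 to 0.128. With the replicate block limma called 2 of the 34 genes in AngIV against NC, Ctss (adjusted p = 0.0395) and Grn (adjusted p = 0.0356), and 218 of all genes, while Flcn lost its call (adjusted p = 0.0792). Flcn also lost it with array weights (adjusted p = 0.0522), and Flcn and Pla2g15 with no filter on dim genes (adjusted p = 0.0621 and 0.0550). Signal near background limits 8 of the 34 genes.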
